A study of Mus musculus with 30 samples.

Results

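Late G1 was compared with early G1 in mouse embryonic stem (ES) cells after loss of the Esrrb-inducing drug, in 6 RNA-seq libraries of the 30 libraries of the study. They were chosen by their labels: libraries 1, 2 and 3 of late G1 after withdrawal against libraries 1, 2 and 3 of early G1 after withdrawal, with same-numbered libraries paired. The study profiled Esrrb binding in interphase and mitosis and gene expression over the cell cycle. All RNA came from EKOiE-Ccna-Gfp, a 129/Ola line that, as background, lacks endogenous Esrrb and carries a doxycycline (DOX)-inducible Esrrb transgene, together with a green fluorescent reporter on cyclin A2 by which the phases were sorted. Late G1 and early G1 cells of the 6 libraries had been without DOX for 24 h, and were grown in serum with LIF on gelatine. The same phases with DOX kept on, 6 further libraries, are set beside them. The 6 G2 libraries, 3 after 24 h without DOX and 3 with it, complete the 18 RNA-seq libraries that share the fits. Whether libraries 1, 2 and 3 are separate cultures, and whether the line is a single clone, is not in the labels. A p-value here therefore covers the spread among these libraries, which may be technical.

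Cells that leave mitosis enter G1, in which cyclin D and cyclin E kinases phosphorylate the retinoblastoma proteins and release E2F factors, which switch on the genes of DNA replication. ES cells are known for a short G1 with little Rb control. Genes of mitosis are switched on later by complexes that bind CHR and CCAAT elements, and their proteins are degraded at mitotic exit. Esrrb, an orphan nuclear receptor of the pluripotency network, stays on part of its sites in mitosis.

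Libraries with different phase labels were nearly the same in counts, and 2 of the 6 libraries compared here are among them. The distance between 2 libraries was taken as chi-square per degree of freedom over genes with at least 20 reads in both together, for which sampling of reads alone gives 1. Of 153 pairs among the 18 libraries, 5 lay under 2 in exonic counts, and each joined libraries of the same number and DOX state but of 2 phases. The library labelled early G1 withdrawn 2 was at 1.12 from G2 withdrawn 2, and the library labelled late G1 withdrawn 3 was at 1.42 from G2 withdrawn 3. With DOX, late G1 2 was at 1.05 from early G1 2, late G1 1 at 1.13 from G2 1, and early G1 3 at 1.43 from G2 3. Late G1 1 and early G1 1 after withdrawal were the next nearest pair, at 3.82. Libraries of 1 group were never nearer than 11.1 to each other. Intronic counts gave 1.16 for early G1 withdrawn 2 and 2.26 for late G1 withdrawn 3, each against the G2 library of its number. These 5 pairs differ in their labels, so they could not be averaged as 1 sample, and the data do not say which label of a pair holds. The lists and most genes below are therefore also given without early G1 2 and late G1 3. This alternative, chosen after the data were seen, keeps 16 libraries and the block. It still counts the near-identical libraries with DOX as separate in its spread. Only number 1 keeps both G1 libraries after withdrawal, so late G1 2 and early G1 3 are tied through the block to the G2 and DOX libraries. Of the lists, 2 are also given for 8 libraries, with all 10 libraries of the near-identical pairs left out, and for late G1 1 and 2 against early G1 1 and 3 alone, both with no block and 2 residual degrees of freedom.

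**Figure D1:**
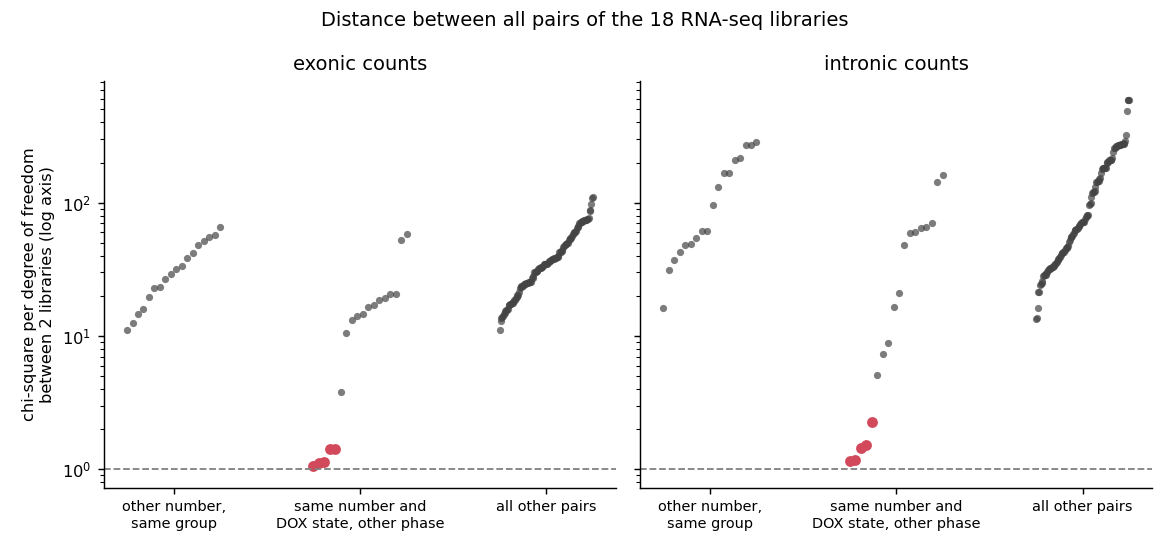
Chi-square per degree of freedom (log axis) between all 153 pairs of the 18 RNA-seq libraries, for exonic and intronic counts, with 1 point per pair and red marking values under 2.5. The dashed line at 1 is what sampling of reads gives. The red points, among them 1.12 and 1.42 in exonic counts for 2 of the libraries compared here, all join libraries of the same number and DOX state and of different phases.

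The genes of G2 and mitosis show the same libraries. Summed over 64 tested members, they reached 6924, 9894 and 13190 CPM (counts scaled to the library total) in late G1 1, 2 and 3, against 6811, 12530 and 8960 CPM in early G1 1, 2 and 3. The G2 libraries 1, 2 and 3 had 14930, 12860 and 14070 CPM. Late G1 3 and early G1 2 lay near the level of the G2 library of their number, and the remaining 4 G1 libraries lay below it. Cyclin B1 (Ccnb1), the mitotic cyclin, had 279, 447 and 598 CPM in late G1 and 261, 540 and 276 CPM in early G1, against 673, 560 and 631 CPM in G2. Aurora kinase A (Aurka), a spindle kinase, had 32.0, 41.0 and 102 CPM in late G1 and 31.6, 84.5 and 50.3 CPM in early G1, against 99.9, 87.3 and 108 CPM in G2. Top2a, the topoisomerase of chromosome segregation, had 417, 989 and 1610 CPM in late G1 and 350, 1268 and 455 CPM in early G1, and Mki67, a proliferation marker, 610, 946 and 1103 CPM in late G1 and 671, 1108 and 928 CPM in early G1. The phases overlapped in all 4 genes. The list's median change by pair was 0.02, -0.36 and 0.32 on the log2 scale in pairs 1, 2 and 3. Of its 64 members, 4 were higher in late G1 in all 3 pairs and 0 were lower, against 17.6 and 16 percent of all genes. The fitted median was 0.03, and 0.11 without the pair of libraries named above, when Ccnb1 had a log2 change of 0.48 ± 0.34, Top2a of 0.96 ± 0.54, Aurka of 0.08 ± 0.41 and Mki67 of 0.10 ± 0.27.

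After withdrawal, Esrrb and the gene of the sorting reporter overlapped between the phases. Esrrb had 160, 162 and 173 CPM in late G1 and 140, 193 and 155 CPM in early G1, groups that overlap, with a log2 change of 0.03 ± 0.12 (SE). With DOX it had 323, 286 and 341 CPM in late G1 and 203, 278 and 247 CPM in early G1. Which exons the knockout removes is not stated in the labels, so the counts after withdrawal do not check it. The difference between the DOX states in that change was -0.36 on the log2 scale (edgeR, unadjusted p = 0.0513; -0.26 without early G1 2 and late G1 3). Cyclin A2 (Ccna2), whose reporter defined the gates, had 357, 377 and 377 CPM in late G1 and 318, 386 and 283 CPM in early G1, a log2 change of 0.17 ± 0.15. Leaving out early G1 2 and late G1 3, the change of Esrrb was 0.13 ± 0.15 and that of Ccna2 was 0.30 ± 0.19.

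Exonic totals ran from 16.6 to 21.0 M counts in late G1 and from 17.9 to 24.3 M in early G1, and intronic totals from 9.7 to 11.1 M in late G1 and from 9.1 to 13.3 M in early G1. The 8 ES cell markers summed to 4323 to 5272 CPM in late G1 and 4141 to 5497 CPM in early G1. The 8 markers of fibroblasts or feeders summed to 8.63 to 14.0 CPM in late G1 and 11.1 to 16.1 CPM in early G1, and the 7 of primitive endoderm to 4.82 to 12.6 CPM in late G1 and 7.57 to 15.9 CPM in early G1. The 5 neural markers summed to 8.29 to 11.4 CPM in late G1 and 8.23 to 11.5 CPM in early G1. No marker in the tables was at 0 in all libraries of a phase.

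No single gene passed the test between late G1 and early G1 after withdrawal. Among the gene lists, DNA replication genes were higher in late G1 by a median of 0.21 on the log2 scale, with 52 of 69 higher in all 3 pairs. Genes of the 2-cell-like state had a median of -0.83 and trophoblast genes with keratins one of -0.38. Of 14092 genes tested over exons with edgeR's quasi-likelihood test and the library number as a block, 0 were higher and 0 lower at an adjusted p under 0.05 (0 percent each). The lowest adjusted p was 0.748, for Gpx7, and the next was 0.918. At an unadjusted p under 0.05 there were 266 higher (1.89 percent) and 448 lower (3.18 percent), 714 or 5.07 percent in all. DESeq2 also called 0, with 678 at an unadjusted p under 0.05. With early G1 2 and late G1 3 left out, edgeR called 0 and had 563 at an unadjusted p under 0.05.

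The bounds this sets are fairly close for well expressed genes. The 95% interval of the log2 change lay within ±1 for 12220 genes (86.7 percent) and within ±0.5 for 62.1 percent. Among the 5475 genes with a mean log2 CPM of at least 5, it lay within ±1 for 99.7 percent and within ±0.5 for 91.9 percent. These intervals take the labels as given. The median absolute log2 change was 0.109, against a median SE of 0.14. Of the spread among the 6 libraries, 13.8 percent went with the phase label and 68.8 percent with the library number. The root mean square log2 difference of late G1 from early G1 was 0.271, 0.411 and 0.373 in pairs 1, 2 and 3, and that between libraries of 1 phase was 0.394 to 0.61.

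**Figure D2:**
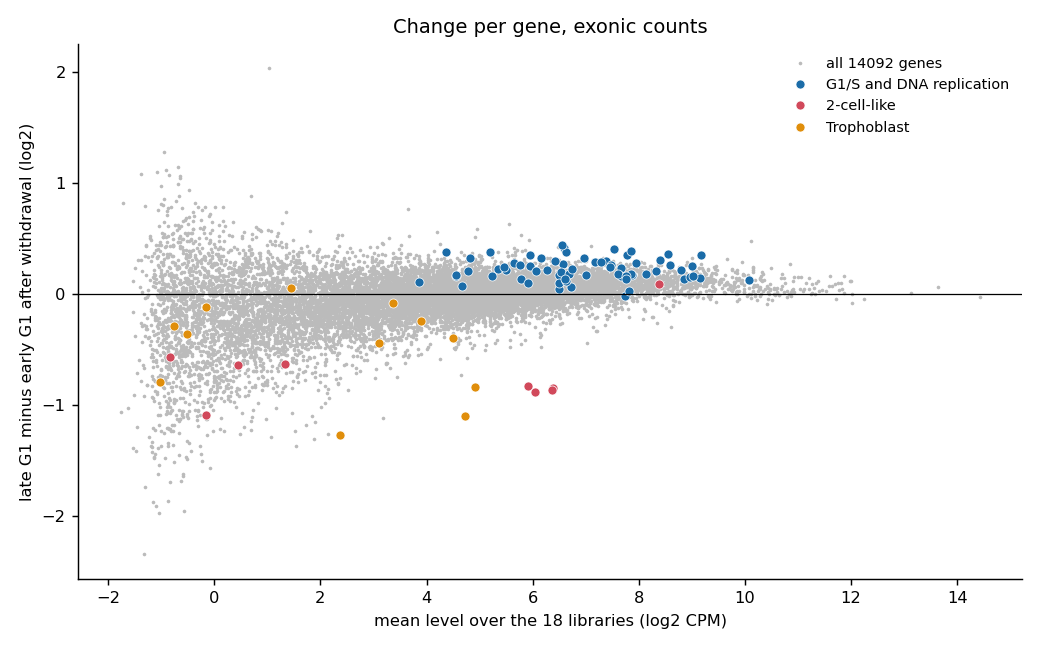
Log2 change of each of the 14092 tested genes, late G1 minus early G1 after withdrawal, against its mean level over the 18 libraries in log2 CPM. Members of the G1/S and DNA replication list sit mostly above 0, with a median of 0.21, and those of the 2-cell-like list mostly below 0, with a median of -0.83. No gene passed the adjusted test.

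DNA replication genes were mostly higher in late G1. Of 69 tested members of the G1/S and DNA replication list, 52 were higher in late G1 in all 3 pairs and 0 were lower, against 17.6 percent higher and 16 percent lower among all genes. Among genes with a mean log2 CPM of 5 or more, the level of most members, 29.1 percent were higher in all 3 pairs. None of the 69 passed the adjusted test, and 22 had an unadjusted p under 0.05, all higher, against 1.89 percent of all genes higher. The median log2 change was 0.21, and by pair 0.12, 0.36 and 0.16, against 0.00 over all genes. In pair 1, which holds neither library near a G2 library, 62 of 69 members (89.9 percent) were higher in late G1, against 52.1 percent of all genes. The median was 0.28 without early G1 2 and late G1 3, with 16 members at an unadjusted p under 0.05. In that fit 563 of 14263 genes had such a p. The list's median was 0.26 in the 8 libraries and 0.25 in the 4 libraries. In the 4 libraries 1 of 69 members had an unadjusted p under 0.05, against 123 of 13667 genes.

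The summed level of the list was 12740, 16080 and 14220 CPM in late G1 1, 2 and 3, against 11700, 12510 and 12700 CPM in early G1. Every late G1 library lay above every early G1 library, but late G1 1 (12740 CPM) only just above early G1 3 (12700 CPM). Late G1 2 stood highest. The G2 libraries 1, 2 and 3 had 12080, 12510 and 13900 CPM. By pair the log2 ratio of the sums was 0.12, 0.36 and 0.16. Pair 2 sets late G1 2 against a library close to G2 2, and pair 3 sets a library close to G2 3 against early G1 3.

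**Figure D3:**
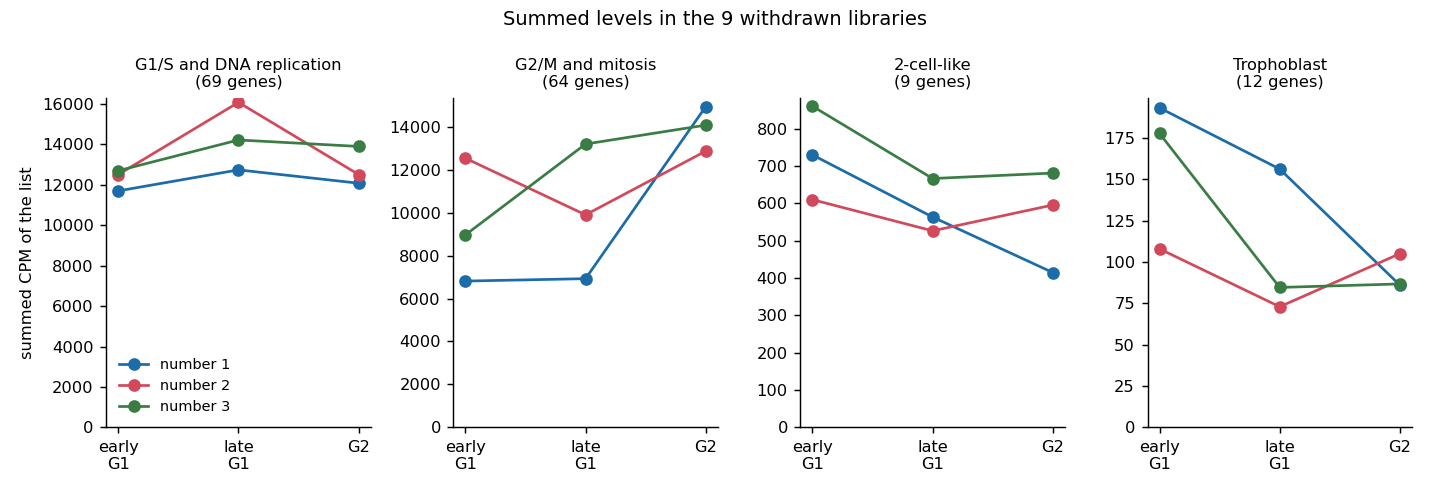
Summed CPM of 4 gene lists in the 9 withdrawn libraries, with phases on the horizontal axis and lines joining libraries of the same number. For G2/M genes, number 2 is high in early G1 (12530 CPM) and number 3 in late G1 (13190 CPM), next to their G2 libraries at 12860 and 14070 CPM. For G1/S genes all 3 late G1 points lie above all early G1 points, the lowest (12740 CPM) only just above the highest of early G1 (12700 CPM).

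Pclaf, the PCNA clamp-associated factor, listed as 2810417H13Rik (mm9 chr9:65738129-65751358, plus strand), ranked first among the genes higher in late G1. It had 52.0, 98.3 and 62.5 CPM in late G1 and 45.0, 45.2 and 43.9 CPM in early G1. The phases do not overlap, and late G1 2 stands apart. Its log2 change was 0.63 ± 0.16 (SE; edgeR adjusted p = 0.918), and 0.65 ± 0.22 without early G1 2 and late G1 3. Pclaf is not on the G1/S list. Beside Esrrb and the G1 cyclin list, genes were named by rank of p among those with the same sign in all 3 pairs, or as the 2 members of a list with the highest level. The others were added after their values were seen.

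Cyclin E1 (Ccne1), the cyclin of the G1/S kinase, had 239, 308 and 235 CPM in late G1 and 199, 224 and 189 CPM in early G1. All 3 late G1 libraries were above all 3 early G1 libraries, with a log2 change of 0.35 ± 0.13. The clamp loader subunit Rfc4 had 68.5, 79.1 and 74.6 CPM in late G1 and 60.3, 60.2 and 53.8 CPM in early G1, with a log2 change of 0.35 ± 0.11. The uracil glycosylase Ung had 107, 116 and 106 CPM in late G1 and 85.5, 72.7 and 85.3 CPM in early G1, with a log2 change of 0.44 ± 0.15. In Rfc4 and Ung the phases did not overlap. Without early G1 2 and late G1 3 the log2 changes were 0.50 ± 0.17 for Ccne1, 0.38 ± 0.16 for Rfc4 and 0.46 ± 0.19 for Ung.

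Msh6, a mismatch repair gene and the most expressed member, had 913, 1293 and 1215 CPM in late G1 and 869, 1153 and 1107 CPM in early G1 (log2 change 0.12 ± 0.11). Pcna, the sliding clamp, had 714, 837 and 627 CPM in late G1 and 652, 541 and 514 CPM in early G1 (log2 change 0.35 ± 0.14). The ribonucleotide reductase genes Rrm1 and Rrm2 had log2 changes of 0.28 ± 0.10 and 0.40 ± 0.16. The replicative helicase genes Mcm2, Mcm3, Mcm4, Mcm5, Mcm6 and Mcm7 had log2 changes of 0.13 to 0.31, the highest that of Mcm4 (0.31 ± 0.14). The licensing factor Cdc6 differed in sign between pairs, with 0.21, 0.56 and -0.27, and its partner Cdt1 had a log2 change of 0.05 ± 0.11. Each of these genes had an edgeR adjusted p of 0.918 or more. Without early G1 2 and late G1 3, Pcna had a log2 change of 0.41 ± 0.18, Msh6 of 0.19 ± 0.16, Rrm1 of 0.34 ± 0.14, Rrm2 of 0.41 ± 0.18, Cdc6 of 0.23 ± 0.24 and Cdt1 of 0.19 ± 0.14, and the 6 Mcm genes ranged from 0.17 to 0.33.

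**Figure D4:**
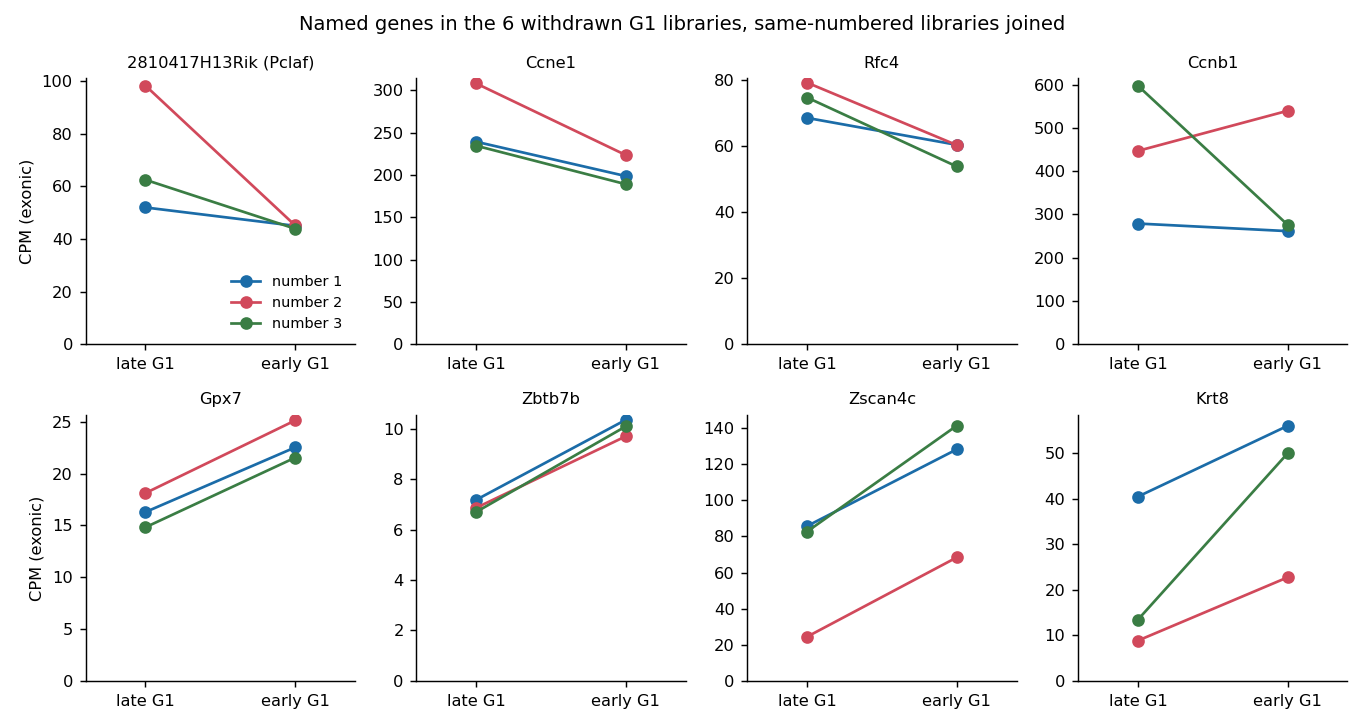
Exonic CPM of 8 genes in the 6 libraries, late G1 left and early G1 right, with lines joining same-numbered libraries. Pclaf, Ccne1, Rfc4 and Ccnb1 are in the upper row and Gpx7, Zbtb7b, Zscan4c and Krt8 in the lower row, all 4 of which are lower in late G1 in every pair. Ccnb1 has high values in early G1 2 (540 CPM) and late G1 3 (598 CPM).

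Promoter sequences of these lists hold the elements named above at different shares. RefSeq windows (GRCm38.p6) from 250 bases before to 50 bases after the start were searched on both strands, and overlapping matches were kept. A CHR match was the motif TTTGAA, or with a changed centre the motif TTCGAA. The second element was the motif CCAAT alone. An E2F match was the motif TTGGCGC, or the variant spelt TTCCCGC, or the variant spelt TTGCCGC, or the variant spelt TTCGCGC. Of 62 windows of 54 G1/S genes, 64.5 percent held an E2F match, 56.5 percent CCAAT and 21 percent CHR. Of 61 windows of 55 G2/M genes, 13.1 percent held an E2F match, 83.6 percent CCAAT and 73.8 percent CHR. Among all 32851 windows the shares were 9.57, 37.4 and 19.2 percent for E2F, CCAAT and CHR. A match is a description of the sequence and not a site shown to be bound. The windows of 3 genes higher in late G1 and of Plk1, a mitotic kinase that was high in the libraries near G2, were chosen after values were seen and are printed 5′ to 3′ on the gene's strand, with all matches in capitals. Pclaf (chr9:65890073-65890372, plus strand) held 2 E2F and 2 CCAAT matches. Rfc4 (chr16:23127681-23127980, minus strand) held 1 E2F match. Mcm6 (chr1:128359656-128359955, minus strand) held 5 E2F matches, in part overlapping, and 2 CCAAT matches. Plk1 (chr7:122159185-122159484, plus strand) held 1 CCAAT and 1 CHR match.
Pclaf: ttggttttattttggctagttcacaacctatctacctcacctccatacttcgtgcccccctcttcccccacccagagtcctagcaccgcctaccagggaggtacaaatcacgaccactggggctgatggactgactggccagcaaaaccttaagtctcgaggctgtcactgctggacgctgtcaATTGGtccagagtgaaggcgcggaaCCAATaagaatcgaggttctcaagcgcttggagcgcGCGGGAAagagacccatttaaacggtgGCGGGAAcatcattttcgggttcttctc
Rfc4: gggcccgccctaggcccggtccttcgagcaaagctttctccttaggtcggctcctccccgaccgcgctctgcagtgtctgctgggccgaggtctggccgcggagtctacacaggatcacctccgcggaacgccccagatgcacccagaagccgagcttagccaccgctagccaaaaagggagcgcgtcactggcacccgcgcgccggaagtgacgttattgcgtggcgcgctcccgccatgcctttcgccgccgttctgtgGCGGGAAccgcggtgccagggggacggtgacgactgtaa
Mcm6: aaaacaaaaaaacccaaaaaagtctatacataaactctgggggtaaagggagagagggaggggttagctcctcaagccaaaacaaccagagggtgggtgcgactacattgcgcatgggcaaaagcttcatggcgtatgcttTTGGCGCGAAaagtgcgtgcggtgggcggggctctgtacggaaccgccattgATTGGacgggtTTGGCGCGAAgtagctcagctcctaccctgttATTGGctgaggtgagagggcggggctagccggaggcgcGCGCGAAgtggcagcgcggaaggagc
Plk1: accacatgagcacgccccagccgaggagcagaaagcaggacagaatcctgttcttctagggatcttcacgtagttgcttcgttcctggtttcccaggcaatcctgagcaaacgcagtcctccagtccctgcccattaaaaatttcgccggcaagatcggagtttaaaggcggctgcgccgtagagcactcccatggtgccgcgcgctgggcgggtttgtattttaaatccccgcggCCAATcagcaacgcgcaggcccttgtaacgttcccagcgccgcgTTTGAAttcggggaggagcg

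The G1 control genes went both ways. Of 27 tested cyclins, CDK inhibitors and pocket proteins, 9 were higher and 3 lower in late G1 in all 3 pairs. Among all genes 17.6 percent were higher and 16 percent lower, and 29.1 percent were higher at a mean log2 CPM of 5 or more. The list's median log2 change was 0.13 (0.12 without early G1 2 and late G1 3). None passed the adjusted test. Skp2, the ubiquitin ligase subunit that targets p27, had 55.8, 68.8 and 63.3 CPM in late G1 and 47.9, 48.4 and 54.1 CPM in early G1, which do not overlap (log2 change 0.32 ± 0.10, and 0.28 ± 0.13 without early G1 2 and late G1 3). Cdk2, the kinase partner of cyclin E, had 156, 181 and 157 CPM in late G1 and 139, 134 and 144 CPM in early G1 (0.24 ± 0.10, and 0.25 ± 0.14 without those 2 libraries).

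Cyclin D2 (Ccnd2) was higher in every pair, by 0.28, 0.31 and 0.29, with 25.4, 30.4 and 22.2 CPM in late G1 and 20.9, 24.5 and 18.1 CPM in early G1; its fitted log2 change was 0.30 ± 0.21, and 0.57 ± 0.27 without early G1 2 and late G1 3. Ccnd1 and Ccnd3 had log2 changes of 0.13 ± 0.14 and 0.16 ± 0.10, and their kinases Cdk4 and Cdk6 of 0.06 ± 0.08 and 0.18 ± 0.13. These 4 were 0.30 ± 0.18, 0.20 ± 0.14, 0.11 ± 0.11 and 0.20 ± 0.17 without early G1 2 and late G1 3. Of the inhibitors, p15 (Cdkn2b) had 17.5, 5.90 and 6.06 CPM in late G1 and 18.7, 11.9 and 9.41 CPM in early G1 (log2 change -0.52 ± 0.18, and -0.46 ± 0.25 without early G1 2 and late G1 3). Number 1 stood high in both phases, so that the phases overlap, and each pair was lower in late G1.

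The inhibitors p21 (Cdkn1a), p27 (Cdkn1b), p57 (Cdkn1c), p16 and p19 (Cdkn2a), p18 (Cdkn2c) and the other INK4 gene, Cdkn2d, had log2 changes between -0.29 and 0.28, and between -0.16 and 0.09 without early G1 2 and late G1 3. The pocket proteins Rb1, Rbl1 and Rbl2 had -0.31 ± 0.18, 0.20 ± 0.19 and -0.03 ± 0.15, and -0.43 ± 0.23, 0.10 ± 0.24 and -0.18 ± 0.17 without those libraries. E2f3, E2f4, E2f5, E2f6, Tfdp1 and Tfdp2, the E2F factors and their partners, had values between -0.11 and 0.23, and between -0.17 and 0.39 without them. The phosphatase Cdc25a had 0.18 ± 0.15 (0.16 ± 0.19 without them). The APC/C activator Fzr1 had 57.2, 57.2 and 80.0 CPM in late G1 and 48.5, 106 and 40.9 CPM in early G1. Its 2 highest values are again in early G1 2 and late G1 3, next to 106 and 90.2 CPM in G2 2 and 3. The APC/C inhibitor Fbxo5 had a log2 change of 0.22 ± 0.14 (0.27 ± 0.19 without them), and that of Fzr1 was 0.03 ± 0.32 (0.38 ± 0.32 without them).

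Replication-dependent histone genes summed to 32480, 36030 and 25520 CPM in late G1 and 30800, 29260 and 32350 CPM in early G1. The median log2 change of the 59 tested members was 0.03, and by pair 0.08, 0.32 and -0.34. Late G1 3 was the lowest library of the 6, early G1 2 the next, and the remaining 4 lay above both. Only 2 members were higher and 3 lower in all 3 pairs, against 17.6 and 16 percent of all genes. Without these libraries the median was 0.12. Near-identical copies make single members uncertain, and, as background, most of these messages lack the poly(A) tail that mRNA kits select for.

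Genes of the 2-cell-like state, a rare and transient state of ES cell cultures that resembles the early embryo, were lower in late G1. Of 9 tested members, 8 were lower in all 3 pairs and 0 higher. Among all genes 16 percent were lower in all 3 pairs, and among those with a mean log2 CPM under 2 the share was 26.4 percent. The median log2 change was -0.83, and by pair -0.60, -1.13 and -0.76. It was -0.84 without early G1 2 and late G1 3, with 0 of 9 at an unadjusted p under 0.05, against 5 of 9 with all libraries. In the 8 libraries it was -1.30. In the 4 libraries it was -1.32, with 7 of 8 at an unadjusted p under 0.05. Among all genes, 714 of 14092 had such a p with all libraries and 563 of 14263 without early G1 2 and late G1 3. In the 4 libraries 123 of 13667 genes had one. The members include near-identical Zscan4 copies, which are not independent. No member passed the adjusted test. In bulk samples, fewer cells of a type and less RNA per cell cannot be told apart.

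Zscan4c, a zinc finger gene that marks this state (mm9 chr7:11591093-11595896, plus strand), had 85.7, 24.4 and 82.7 CPM in late G1 and 128, 68.4 and 141 CPM in early G1. Number 2 was low in both phases, so that the phases overlap, and each pair was lower in late G1, by 0.58, 1.48 and 0.77 on the log2 scale. The G2 libraries 1, 2 and 3 had 45.9, 66.6 and 86.6 CPM. The fitted log2 change was -0.85 ± 0.34 (edgeR adjusted p = 0.918), and -0.86 ± 0.45 without early G1 2 and late G1 3. Zscan4b, Zscan4d and Zscan4f, near-identical copies that the counting could split, had log2 changes of -0.83, -0.88 and -0.87 and are not independent of it. Dux, the homeobox gene that switches on this state, had 2.71, 0.421 and 1.97 CPM in late G1 and 4.26, 2.73 and 5.84 CPM in early G1. Early G1 2 was just above late G1 1, and the log2 change was -1.37 ± 0.31 (-1.35 ± 0.42 without early G1 2 and late G1 3). Eif1a, the member with the highest level and also expressed in ES cells at large, had 262, 439 and 374 CPM in late G1 and 274, 367 and 360 CPM in early G1.

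Trophoblast genes and keratins were lower in late G1 in most members. Of 12 tested, 9 were lower in all 3 pairs and 0 higher, with a median log2 change of -0.38, and by pair -0.26, -0.30 and -0.57. The share lower in all 3 pairs was 16 percent among all genes and 26.4 percent among those with a mean log2 CPM under 2. The median over 13 members tested without early G1 2 and late G1 3 was -0.33. None passed the adjusted test, and 5 were lower at an unadjusted p under 0.05, against 3.18 percent of all genes. Keratin 8 (Krt8), an intermediate filament gene of simple epithelia, had 40.5, 8.85 and 13.4 CPM in late G1 and 56.0, 22.7 and 49.97 CPM in early G1, with 9.96, 23.3 and 13.1 CPM in G2. Its log2 change was -1.10 ± 0.44. Its partner keratin 18 (Krt18) had 35.8, 15.4 and 16.4 CPM in late G1 and 46.1, 25.2 and 46.9 CPM in early G1 (-0.84 ± 0.26). In both genes number 1 stood high in late G1, above early G1 2. Krt7 had 4.41, 1.14 and 3.35 CPM in late G1 and 8.19, 3.73 and 9.65 CPM in early G1 (-1.27 ± 0.37). Leaving out early G1 2 and late G1 3 gave -1.09 ± 0.53 for Krt8, -0.84 ± 0.31 for Krt18 and -1.51 ± 0.46 for Krt7.

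The transcription factors of the list had smaller values. Ascl2 had a log2 change of -0.44 ± 0.14, Id2 of -0.40 ± 0.17, Tfap2c of -0.24 ± 0.15 and Gata3 of -0.12 ± 0.36, against -0.49 ± 0.19, -0.39 ± 0.22, -0.31 ± 0.18 and -0.29 ± 0.51 without early G1 2 and late G1 3. The 5 markers of trophoblast (Cdx2, Elf5, Gata3, Hand1 and Ascl2) summed to 5.603 to 11.03 CPM in late G1 and 9.11 to 14.0 CPM in early G1. The 4 tabled 2-cell-like markers summed to 64.0 to 242.5 CPM in late G1 and 191.3 to 406.8 CPM in early G1. Primitive endoderm genes, 17 tested, had 2 higher and 7 lower in all 3 pairs, with a median of -0.17 (-0.19 without early G1 2 and late G1 3). By pair the medians were -0.005, -0.37 and -0.02, so that only pair 2, which holds the early G1 library close to G2 2, was clearly below 0. The intronic median was 0.01 (0.06 without early G1 2 and late G1 3). The shares among all genes were 17.6 percent higher and 16 percent lower. Lower expressed genes in general had a median of -0.16 when their mean log2 CPM was under 2, and 0.06 when it was 5 or more. The part of this dependence on level, and of the marker sums above, in the list values was not tested.

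Gpx7, a peroxidase of the endoplasmic reticulum (mm9 chr4:108072821-108079318, minus strand), had the smallest p of all genes. It had 16.3, 18.1 and 14.8 CPM in late G1 and 22.5, 25.1 and 21.5 CPM in early G1. The phases did not overlap, and the pairs differed by -0.46, -0.47 and -0.54. The log2 change was -0.49 ± 0.09 (95% interval -0.69 to -0.30, edgeR adjusted p = 0.748), and -0.57 ± 0.13 without early G1 2 and late G1 3. In G2 it had 17.1, 23.2 and 16.9 CPM. Zbtb7b, a zinc finger repressor, had 7.18, 6.86 and 6.70 CPM in late G1 and 10.3, 9.70 and 10.1 CPM in early G1, again with no overlap (-0.54 ± 0.14, and -0.66 ± 0.18 without early G1 2 and late G1 3). With DOX, Gpx7 had 25.02, 30.6 and 22.6 CPM in late G1 and 27.2, 31.2 and 21.5 CPM in early G1, a log2 change of -0.03.

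The other genes ranked by the rule as lower were Gm13119, a predicted gene with near-identical relatives (-1.26 ± 0.28), Rgs16, a brake on G protein signalling (-0.63 ± 0.16), Rhob, a small GTPase (-0.56 ± 0.15), and Hnf4a, a nuclear receptor of endoderm (-0.75 ± 0.20). Casd1, Ppp1r3b, A4galt and Spg20 had log2 changes between -0.57 and -0.39. Those ranked as higher and reported here were, beside Pclaf, Rfc4, Skp2 and Ung, the genes Lrp11 (0.28 ± 0.08), Mtap (0.29 ± 0.09), the Hsp90 cochaperone Ptges3 (0.32 ± 0.10), the cold-inducible RNA-binding protein Cirbp (0.27 ± 0.09) and the nuclear import receptor Kpna3 (0.33 ± 0.11). Each had an edgeR adjusted p of 0.918. Without early G1 2 and late G1 3 the log2 changes ran from -1.31 to -0.39 for those lower. For the last 5 named as higher they ran from 0.29 to 0.38. All kept their sign, but the rule had picked them for the same sign in all 3 pairs, so this is no separate support.

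**Figure D5:**
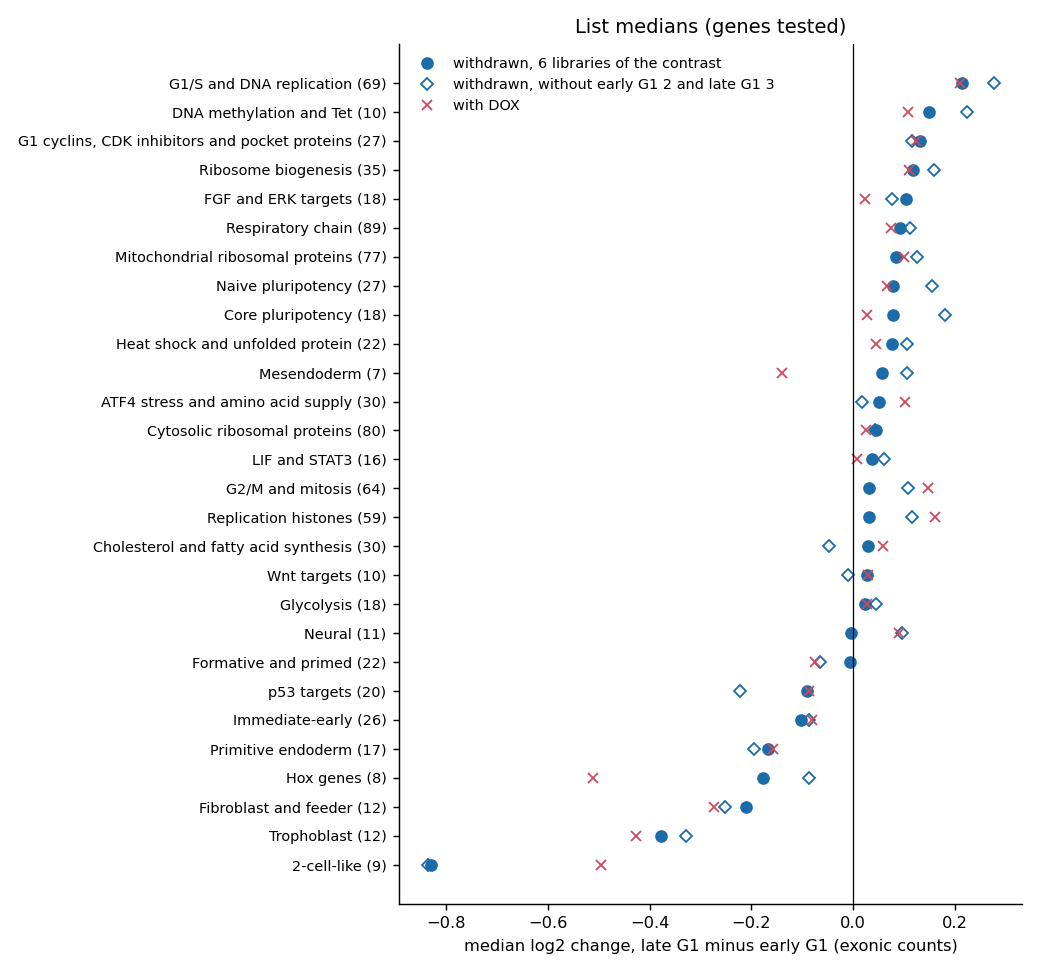
Median log2 change, late G1 minus early G1 in exonic counts, of 28 gene lists. Filled circles are the withdrawn libraries, open diamonds the same without early G1 2 and late G1 3, and crosses the libraries with DOX. The G1/S list is at 0.21, 0.28 and 0.21, and the 2-cell-like list at -0.83, -0.84 and -0.50.

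Pluripotency list medians lay slightly above 0. The 27 naive and 18 core genes had medians of 0.08 and 0.08 (0.16 and 0.18 without early G1 2 and late G1 3). By pair the medians were 0.07, -0.02 and 0.18 for naive and 0.10, -0.02 and 0.18 for core genes. In all 3 pairs 8 naive genes were higher and 1 lower, and 4 core genes higher and 0 lower. The shares among all genes were 17.6 and 16 percent, with 29.1 percent higher at a mean log2 CPM of 5 or more. Nanog had 153, 279 and 234 CPM in late G1 and 145, 274 and 217 CPM in early G1 (0.07 ± 0.10), and Pou5f1 had a log2 change of 0.09 ± 0.08; without early G1 2 and late G1 3 these were 0.14 ± 0.13 and 0.20 ± 0.10. For Nanog number 1 was low in both phases. Spp1, osteopontin, had 752, 1124 and 885 CPM in late G1 and 744, 910 and 722 CPM in early G1 (0.21 ± 0.10, and 0.23 ± 0.13 without them). Zfp42, a naive-state marker, had 240, 676 and 719 CPM in late G1 and 233, 749 and 558 CPM in early G1, with number 1 again low in both.

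Growth-related lists also leaned higher by small amounts. Ribosome biogenesis had 17 higher and 0 lower of 35 in all 3 pairs (median 0.12), mitochondrial ribosomal proteins 29 and 0 of 77 (0.08) and the respiratory chain 35 and 1 of 89 (0.09). These medians were 0.16, 0.13 and 0.11 without early G1 2 and late G1 3. By pair the medians were 0.08, 0.09 and 0.18 for ribosome biogenesis and 0.05, 0.04 and 0.17 for mitochondrial ribosomal proteins. For the respiratory chain they were 0.03, 0.05 and 0.17. Each list had its largest median in pair 3, which holds the late G1 library close to G2 3. The counts stand beside the 29.1 percent higher among genes with a mean log2 CPM of 5 or more. Among all genes 17.6 percent were higher and 16 percent lower in all 3 pairs. The immediate-early genes had 3 higher and 9 lower of 26 (median -0.10, and -0.09 without those libraries). By pair the medians were 0.06, -0.14 and -0.17, and in pair 1 16 of the 26 were higher in late G1. Egr1, a zinc finger gene of this list, had a log2 change of 0.39, opposite to Fos and Btg2. Fos, an AP-1 subunit, had 16.7, 8.61 and 13.5 CPM in late G1 and 19.3, 13.7 and 15.2 CPM in early G1 (-0.32 ± 0.14, and -0.45 ± 0.18 without them). Btg2, an antiproliferative early gene, had 196, 80.9 and 63.9 CPM in late G1 and 207, 102 and 89.6 CPM in early G1 (-0.29 ± 0.13, and -0.32 ± 0.17 without them). Number 1 stood high in both phases for Btg2.

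The remaining lists stand beside 17.6 percent higher and 16 percent lower in all 3 pairs among all genes. Of these lists, the 20 p53 target genes had 2 higher and 7 lower in all 3 pairs (median -0.09, and -0.22 without early G1 2 and late G1 3). The 10 genes of DNA methylation and Tet enzymes had 4 and 0 (median 0.15, and 0.22 without those 2 libraries). Uhrf1, the factor that brings the maintenance methyltransferase to replicated DNA and also a member of the G1/S list, had 463, 485 and 453 CPM in late G1 and 379, 317 and 395 CPM in early G1, which do not overlap (0.36 ± 0.19, and 0.40 ± 0.22 without them). Cholesterol and fatty acid synthesis and ATF4 stress genes had medians of 0.03 and 0.05, with pair medians of 0.04, 0.22 and -0.13, and of 0.03, -0.18 and 0.27. Their medians were -0.05 and 0.02 without early G1 2 and late G1 3. In these 2 lists pairs 2 and 3 went opposite ways, as they did for the G2/M list.

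Esrrb peaks of the authors' Bookmarked class are those that keep Esrrb in mitosis. Genes whose start was nearest to such a peak were more often higher than lower in late G1 in all 3 pairs, but not in pair 2 alone. Of 1188 tested, 271 (22.8 percent) were higher and 138 (11.6 percent) lower in all 3 pairs, against 17.6 and 16 percent of all genes, with a median of 0.03. Of 4014 genes nearest to Lost peaks alone, 702 (17.5 percent) were higher and 615 (15.3 percent) lower (median 0.00). Of 8890 genes assigned no peak within 50 kb, 1510 (17 percent) were higher and 1505 (16.9 percent) lower (median 0.00). In pair 1, 64.1 percent of the Bookmarked, 56.6 percent of the Lost and 48.5 percent of the remaining genes were higher. Pair 2 did not repeat this order, with 568 of 1188, 1854 of 4014 and 4588 of 8890 higher. The medians of the 3 sets were -0.011, -0.025 and 0.012 in pair 2 and 0.049, 0.006 and 0.004 in pair 3. Leaving out early G1 2 and late G1 3, the medians were 0.05, 0.01 and 0.00. None of these genes passed the adjusted test, and genes of higher level also leaned higher, whose part in these counts was not tested.

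With DOX kept on, the medians of the G1/S, 2-cell-like and trophoblast lists had the same sign as after withdrawal. The mesendoderm and neural medians did not, with 0.06 and -0.004 after withdrawal and -0.14 and 0.09 with DOX. Of 69 G1/S genes, 40 were higher in late G1 in all 3 pairs and 0 were lower, with a median of 0.21. Among all genes 14.9 percent were higher and 13.7 percent lower in all 3 DOX pairs. The 2-cell-like and trophoblast medians with DOX were -0.50 and -0.43. The difference between the DOX states passed the adjusted test for 0 of 14092 genes (0 percent), with 135 (0.958 percent) at an unadjusted p under 0.05, and DESeq2 gave 0 and 96. The contrast with DOX alone called 0 (0 percent), with 424 (3.01 percent) at an unadjusted p under 0.05. In number 2 with DOX both phases were at 1.05 chi-square per degree of freedom from each other, and each of the other DOX pairs holds a library near G2. Without early G1 2 and late G1 3 of the withdrawn libraries, the difference called 0 genes, with 110 at an unadjusted p under 0.05.

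The 8 genes with the smallest p for that difference, by the rule, were Cidec, Napb, Slc35c1 and Med31 on the higher side and Hsbp1l1, Tinagl1, Gpx7 and Htr3a on the lower side. Tinagl1, a matrix protein gene, had 1.82, 0.481 and 1.08 CPM in late G1 and 3.07, 1.90 and 2.56 CPM in early G1 after withdrawal. With DOX it had 7.20, 4.12 and 4.99 CPM in late G1 and 8.15, 3.73 and 4.06 CPM in early G1. The difference of the changes was -1.25 on the log2 scale (edgeR unadjusted p = 0.0023, not past the adjusted test), and -1.34 ± 0.43 without early G1 2 and late G1 3.

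Introns, which report on nascent or unspliced RNA, gave no call either. Of 14075 genes tested, 0 were higher and 0 lower after adjustment (0 percent each; lowest edgeR adjusted p = 0.996), and DESeq2 called 0, with 457 at an unadjusted p under 0.05. At an unadjusted p under 0.05, edgeR had 249 higher (1.77 percent) and 383 lower (2.72 percent). Late G1 was higher in all 3 pairs for 13.4 percent of genes and lower for 13.8 percent. With early G1 2 and late G1 3 left out, 540 had an unadjusted p under 0.05 and 0 passed.

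The intronic median of the G1/S list was 0.07, against 0.21 in exons, and 0.13 without early G1 2 and late G1 3. Pclaf had an intronic change of 0.18 ± 0.25, and Rfc4 of 0.27 ± 0.11, and without those libraries -0.06 ± 0.34 and 0.21 ± 0.14. The 2-cell-like list had an intronic median of -0.99 (-0.95 without them) and the trophoblast list of -0.67 (-0.46 without them). Zscan4c introns had 9.29, 4.67 and 11.2 CPM in late G1 and 18.1, 10.4 and 21.8 CPM in early G1, a log2 change of -1.01 ± 0.36 (-1.06 ± 0.48 without them).

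The intronic genes ranked as lower were Parm1, Tm6sf1, Cacna1h, Zc3h12c, Arhgef17 and Nrk. Parm1 had 16.5, 8.60 and 8.71 CPM in late G1 and 20.8, 12.7 and 14.4 CPM in early G1 (-0.53 ± 0.13, and -0.49 ± 0.17 without early G1 2 and late G1 3). Those ranked as higher were Cep128, Tmem150b, Susd1, Loxl1, Sectm1b and Itga10. Cep128, a centriole appendage gene, had 19.1, 30.2 and 33.5 intronic CPM in late G1 and 17.2, 17.8 and 20.2 CPM in early G1 (0.57 ± 0.17, and 0.66 ± 0.23 without them). Late G1 1 lay below early G1 3, so the phases overlap.

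The exonic minus intronic change was tested in 12516 genes, and 0 passed (0 percent), with 191 (1.53 percent) at an unadjusted p under 0.05. Without early G1 2 and late G1 3 these were 0 and 184. The smallest p values belonged to Rhoc, Taf7, Wbp5 and Ammecr1 on the higher side and Abca17, Klf12, Bloc1s5 and Ano3 on the lower side. For Rhoc the exonic change was 0.13 and the intronic change -1.44 on the log2 scale, a difference of 1.57 ± 0.41 (1.37 ± 0.53 without early G1 2 and late G1 3). No source used here states the strand setting of the counting, so intronic reads of overlapping genes cannot be told apart.

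A fit of the 6 libraries alone with the number as a block called 10 of 13514 exonic genes (0.074 percent), all lower in late G1. It has 2 residual degrees of freedom. The 10 were Zscan4b, Zscan4c, Zscan4d and Zscan4f, the epithelial keratins Krt7 and Krt8, the channel-family gene Ano3, Gm13119, the neural cell adhesion gene Prtg and the interferon-induced GTPase gene Gbp2. Zscan4f had a log2 change of -0.94 ± 0.13 there (edgeR adjusted p = 0.00684) and Krt8 of -1.21 ± 0.18 (adjusted p = 0.0119). Krt18 missed the threshold with an adjusted p of 0.0518. In introns the same fit called 6 of 13711 genes (0.0438 percent), all lower: Zscan4b, Zscan4c, Zscan4d, Zscan4f, Gm4302 and Nlrp4e.

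These calls were not made in the 18 libraries. The comparison of late G1 1 and 2 with early G1 1 and 3 alone leaves out the libraries near G2 and also has no block, and the parts of these changes in its counts cannot be told apart. In it 0 genes were called over exons and 0 over introns, with 123 and 83 at an unadjusted p under 0.05. Krt8 then had a log2 change of -1.12 ± 0.58 and Zscan4c of -1.31 ± 0.50. Ano3 had 3.00, 1.93 and 1.82 CPM in late G1 and 6.58, 4.35 and 5.61 CPM in early G1, which do not overlap, and -1.31 ± 0.36 in these 4 libraries.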

How the data were processed

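Exonic and intronic counts per gene of 18 RNA-seq libraries were used as deposited by the authors, with column names taken as labels per the file headers. The labels give an Illumina TruSeq stranded mRNA kit. Build mm9 and the tools Bowtie, DESeq2 and CASAVA 1.8 stand in the submitters' processing notes without their roles. No source used here gives the counting tool, the annotation version or the strand setting. The authors' peak table was used for peak position and class alone, with a peak assigned to the nearest gene start within 50 kb. The intronic table had 2377 blank lines, which were dropped, and 27 symbols turned into dates were restored in each table from their accessions.

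Totals ran from 11.1 to 31.8 M exonic and 6.1 to 20.8 M intronic counts per library. Genes passing filterByExpr were fitted with edgeR 4.0.16 (R 4.3.3; TMM, quasi-likelihood test, 6 group means and library number as a block, Benjamini-Hochberg threshold 0.05), and DESeq2 1.42.0 was an alternative. The SE is the log2 change divided by the root of F, and pair differences are in log2 CPM with a prior count of 2. CPM values use TMM-scaled totals, except the sums of cell type markers, which use library totals without TMM. The steps were tested on simulated data. The number is taken as pairing the libraries because the rule that chose them pairs same-numbered libraries. Deviations of same-numbered libraries from their phase means correlated by 0.77, 0.40 and 0.51 over genes, against -0.62 to 0.26 in other pairings. Deviations of the 3 libraries of a phase sum to 0, so positive values in same-numbered pairings lower the others. The contrast is therefore no test of the pairing. Named genes are the 10 per direction with the smallest exonic p (6 intronic, 4 for the exonic minus intronic change and for the difference between DOX states), the first 2 kinds with a mean log2 CPM of at least 2 and the same sign in all 3 pairs, plus Esrrb, Ccna2, the G1 cyclin list and the 2 most expressed members of each list; other genes were added after their values were seen. Members and lists were chosen with earlier results of these data known. Precision given by depth covers counting error only. A gene that the rule for named genes ranks is not reported here.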

Additional observations from a re-analysis of the deposited data

How the results depend on the processing

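No adjusted call appeared in 16 of the 17 exonic and 16 of the 17 intronic alternatives. The exception is the fit of the 6 libraries alone with the replicate block, which called 10 exonic and 6 intronic genes, all lower in late G1, where the fit over 18 libraries called 0; the cause was not tested. With no replicate block, 0 genes were called, and 184 exonic and 151 intronic genes had an unadjusted p under 0.05, against 714 and 632 with the block. Over all alternatives that number ran from 123 to 1341 in exons and from 83 to 1041 in introns. Leaving out each of the 6 libraries in turn called 0 genes each time, with 259 exonic genes at an unadjusted p under 0.05 without early G1 3, 261 without late G1 2 and 1341 without late G1 1. The fits without libraries near another phase were chosen after the data were seen. Without all 10 such libraries, 8 remained, with no block: 0 genes were called, and 130 exonic and 96 intronic genes had an unadjusted p under 0.05. The difference between DOX states had 0 calls throughout, with 36 to 595 genes at an unadjusted p under 0.05, and the exonic minus intronic change 0 calls with 107 to 373. The G1/S median ran from 0.13 to 0.28 and the 2-cell-like median from -1.32 to -0.56. Scaling by DESeq2's size factors shifted the median of all genes by 0.0062. With 3 libraries a phase, genes of low counts have wide intervals.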
